A study of Homo sapiens with 4 samples.

Results

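The genes described are 10 human regulators of the G1 phase of the cell cycle: the cyclins CCND2, CCND3, CCNE1 and CCNE2, the cyclin-dependent kinases CDK4 and CDK6, and the CDK inhibitors CDKN1A, CDKN1B, CDKN2C and CDKN2D. They were taken by symbol from a table of read counts for 61267 genes, in which all 10 were present. RNA was sequenced from SU-DHL-2 cells, a line established from a diffuse large B-cell lymphoma and labelled wild type. Spautin-1, known as a compound that blocks the deubiquitinases USP10 and USP13, was given at 10 µM for 36 h to 2 samples, and 2 samples received the vehicle, whose composition the labels do not name. The labels do not say whether the replicates were separate cultures, so the p-values measure the spread between these 4 libraries, which may be technical.

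Progress through G1 is driven by D-type cyclins, which bind CDK4 or CDK6 and begin the phosphorylation of the retinoblastoma protein and its relatives. E2F factors released from these pocket proteins induce, among others, the E-type cyclins, which bind CDK2 and carry the cell into DNA replication. INK4 inhibitors such as CDKN2C and CDKN2D bind CDK4 and CDK6 and keep D-type cyclins off them, while the CIP/KIP inhibitors CDKN1A and CDKN1B block complexes of cyclin E with CDK2. In B lymphocytes CCND2 and CCND3 are the usual D-type cyclins, and CCND3 is known for its part in germinal-centre proliferation.

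Libraries held 34115420 to 38362526 counts. Levels are given as CPM (counts scaled to a common depth), with library sizes scaled by the trimmed mean of M values (TMM). A gene was called when the edgeR quasi-likelihood test gave a Benjamini-Hochberg adjusted p under 0.05 over the 18368 genes that passed a filter on low counts, which included all 10. The B-lineage markers PAX5 and MS4A1 (CD20) averaged 149 and 619 CPM in Spautin-1, against 145 and 410.3 CPM in vehicle. MME, a germinal-centre marker, was at 0 in both Spautin-1 libraries and averaged 0.0547 CPM in vehicle. Of 12 B-lineage markers, 11 were tested, 6 were called higher in Spautin-1 and 1, BCL6, lower. That is a called share of 63.6%, beside 22.0% of all genes tested and 27.9% of those with a mean level of at least 1.80 CPM. The markers with the smallest p were PRDM1, a driver of plasma cell differentiation, with 120.6 CPM in Spautin-1 against 18.7 CPM in vehicle, IRF4, with 76.3 against 31.5 CPM, and CD22, with 159 against 87.9 CPM. The others called higher were MS4A1, CD74 and HLA-DRA, and CD79A, CD79B and PAX5 were among those not called. Their part in the results on the 10 genes was not tested. Of 16 markers of T, NK, myeloid, epithelial and stromal cells, 7 passed the filter and 0 were called (at an unadjusted p under 0.05, 0 higher and 1, ITGAM, lower; 0 by DESeq2, limma-voom and the edgeR exact test). Their summed level was 55.3 and 60.0 CPM in the Spautin-1 libraries and 51.1 and 57.5 CPM in the vehicle libraries, of which EPCAM made up 52.6 CPM in Spautin-1 and 48.6 CPM in vehicle on average. None of the 16 was at 0 in all 4 libraries. Among T-cell genes, CD3D had 10 and 8 reads in Spautin-1 and 4 and 8 in vehicle, and CD3E had 0 in both Spautin-1 libraries and 4 and 0 in vehicle.

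Of the 10 genes, 3 were higher and 3 lower in Spautin-1 than in vehicle, and 4 were not called. Both E-type cyclins and CDK4 fell, and CDK6, CDKN1B and CCND2 rose. Among all genes tested 22.0% were called, 11.5% as higher and 10.5% as lower, and among the 12750 tested genes with a mean level of at least 1.80 CPM, that of the lowest of the 10, 27.9% were called. The libraries of the 2 groups did not overlap for 8 of the 10 genes, 3 above and 5 below vehicle, beside 61.4% of all genes tested. The median log2 fold change of the 10 was -0.25, against -0.01 over all genes tested, and the median of its absolute value was 0.54, against 0.38. With 2 libraries against 2 the smallest exact permutation p is 0.333, so the calls rest on the fit across all genes. In bulk RNA, fewer cells in a phase of the cycle and less of a transcript per cell cannot be told apart.

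**Figure D1:**
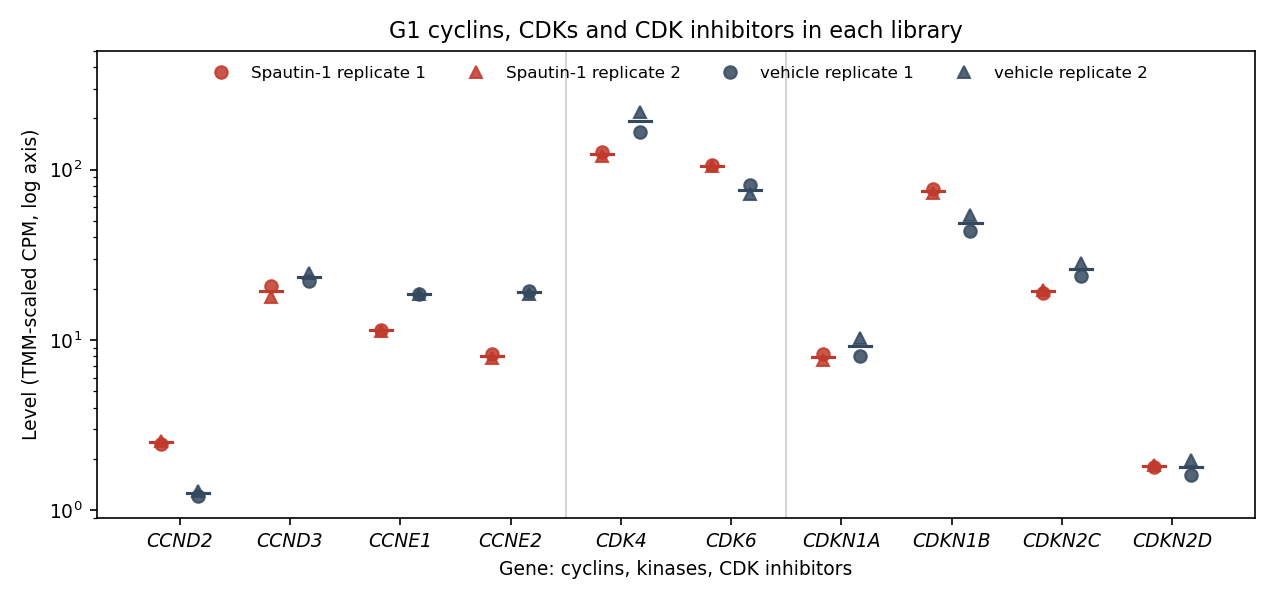
Level of each of the 10 genes in each library, in TMM-scaled CPM on a log axis, with Spautin-1 (red) left of vehicle (dark blue), circles for replicate 1, triangles for replicate 2 and a bar at each group's mean. Both Spautin-1 points lie below both vehicle points for CCND3, CCNE1, CCNE2, CDK4 and CDKN2C and above them for CCND2, CDK6 and CDKN1B, while the groups overlap for CDKN1A and CDKN2D.

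Promoter windows of 300 bases, from 250 before to 50 after the start that RefSeq gives, were matched by symbol in RefSeq (GRCh38.p14) for 8 of the 10 genes, all but CCND2 and CCNE2. They were searched on both strands for 8 motifs: E2F (TTTCCCGC, TTTCGCGC, TTTGCCGC or TTTGGCGC), the E-box CACGTG, the cyclic AMP element TGACGTCA, AP-1 (TGANTCA), FOXO (GTAAACA), NF-kB, the GC box GGGCGG and the CCAAT box (CCAAT). The E2F spellings were in 0 of the 8 windows, beside 3.31% of 35116 promoters of the same length. The AP-1, cyclic AMP and NF-kB motifs were also in 0 of the 8, beside 7.71%, 1.85% and 11.3% of all promoters. GC boxes were in 7 of the 8 (45.0% of all promoters), E-boxes in 3 (7.26%), CCAAT boxes in 2 (34.6%) and the FOXO motif in 1, that of CCND3 (3.42%). The windows with a GC box were 62.3% to 81.0% G and C, against a median of 58.7% over all promoters. These shares were not matched for base composition. For CCNE1 and CDK6 that start is the outer end of the gene in the count table, while for CDK4 it lies 3703 bases and for CDKN1B 31870 bases inside the gene as tabulated, so those windows stand at an inner start. In these 8 windows 0 matches of one motif overlapped a match of another. The windows of 4 called genes are printed, CDK4 and CCNE1, whose transcripts fell, and CDK6 and CDKN1B, whose transcripts rose. The motif in capitals was chosen gene by gene, so the capitals do not compare motif content between all 4. Capitals mark the E-box in CDK4 and CDK6, the GC box in CCNE1 and the CCAAT box in CDKN1B, on either strand, and each sequence runs 5′ to 3′ on the gene's own strand.
CDK4 (chr12:57752261-57752560, minus strand): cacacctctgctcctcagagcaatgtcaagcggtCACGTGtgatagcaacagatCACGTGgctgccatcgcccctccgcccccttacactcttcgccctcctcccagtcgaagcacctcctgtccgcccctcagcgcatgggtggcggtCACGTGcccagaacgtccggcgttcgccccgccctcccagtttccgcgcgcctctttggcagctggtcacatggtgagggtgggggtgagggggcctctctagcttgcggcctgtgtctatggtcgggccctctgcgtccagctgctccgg
CCNE1 (chr19:29811741-29812040, plus strand): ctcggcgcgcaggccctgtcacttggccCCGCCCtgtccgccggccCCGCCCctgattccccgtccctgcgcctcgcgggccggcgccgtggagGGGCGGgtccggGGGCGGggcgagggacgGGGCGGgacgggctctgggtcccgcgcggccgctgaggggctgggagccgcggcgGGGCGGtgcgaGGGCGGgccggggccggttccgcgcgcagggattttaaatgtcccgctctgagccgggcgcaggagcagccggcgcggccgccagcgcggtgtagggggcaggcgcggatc
CDK6 (chr7:92836524-92836823, minus strand): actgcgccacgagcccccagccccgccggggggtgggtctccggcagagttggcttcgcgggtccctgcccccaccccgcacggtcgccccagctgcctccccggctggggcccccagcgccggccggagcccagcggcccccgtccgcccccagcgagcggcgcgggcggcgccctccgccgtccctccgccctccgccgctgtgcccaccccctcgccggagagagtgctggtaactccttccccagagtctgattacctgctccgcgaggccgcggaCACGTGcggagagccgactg
CDKN1B (chr12:12717118-12717417, plus strand): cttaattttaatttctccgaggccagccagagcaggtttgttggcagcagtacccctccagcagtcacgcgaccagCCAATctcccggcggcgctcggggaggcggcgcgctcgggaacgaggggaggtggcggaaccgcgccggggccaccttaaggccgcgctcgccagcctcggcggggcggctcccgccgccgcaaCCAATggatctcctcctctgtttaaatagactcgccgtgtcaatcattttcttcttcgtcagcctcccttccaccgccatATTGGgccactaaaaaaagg
The CDK4 window held 3 E-boxes, the sequence bound by MYC with MAX, starting 216, 196 and 101 bases before that start, and 33 of the 35116 promoters (0.094%) held as many. The CDK6 window held 1 E-box, starting 30 bases after the start. The CCNE1 window held 7 GC boxes, a number reached by 1.5% of promoters, and the CDKN1B window held 3 CCAAT boxes, reached by 3.26%. Unmarked GC boxes were also in the windows of CDK4 (3), CDK6 (3) and CDKN1B (1). The CCNE1 window was 81.0% G and C, against a median of 58.7% over all promoters.

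Of the kinases, CDK4, the main D-cyclin partner in many cell types, fell and CDK6, its close relative and the form known for high levels in blood cells, rose. CDK4 (chromosome 12, 57747727 to 57756013, GRCh38) was at 127 and 120.3 CPM in the Spautin-1 libraries, against 166.5 and 218 CPM in the vehicle libraries. The vehicle libraries stood far apart, but both lay above both Spautin-1 libraries. The log2 fold change was -0.63 ± 0.13 (± SE), or 1.55-fold lower, with an edgeR adjusted p of 0.00454. CDK6 (chromosome 7, 92604921 to 92836573) was at 107 and 105 CPM in Spautin-1, against 81.2 and 71.7 CPM in vehicle. Its log2 fold change was 0.47 ± 0.11, or 1.38-fold higher, with an edgeR adjusted p of 0.0118. The order of the vehicle libraries was opposite in the 2 genes, with replicate 2 the higher for CDK4 and replicate 1 for CDK6. On the opposite strand TSPAN31 shares 44.2% of the exonic bases of CDK4. TSPAN31 itself was not called (log2 fold change -0.22 ± 0.13, edgeR adjusted p = 0.273), and the sources used here do not say whether reads were counted by strand.

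Both E-type cyclins, the partners of CDK2 at the entry into S phase, fell, CCNE2 by more than CCNE1. CCNE2 (chromosome 8, 94879770 to 94896678) was at 8.21 and 7.85 CPM in Spautin-1, against 19.4 and 18.6 CPM in vehicle, with replicates close together in both groups. This was the largest change among the 10 genes, a log2 fold change of -1.24 ± 0.16 or 2.37-fold lower, with an edgeR adjusted p of 0.000264. CCNE1 (chromosome 19, 29811991 to 29824312) was at 11.5 and 11.3 CPM in Spautin-1, against 18.6 and 18.5 CPM in vehicle, a log2 fold change of -0.71 ± 0.15 or 1.63-fold lower (edgeR adjusted p = 0.00639). INTS8 shares 37.0% of the exonic bases of CCNE2 on the opposite strand and was not called (-0.11 ± 0.15, edgeR adjusted p = 0.635).

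The D-type cyclins did not move together. CCND3 (chromosome 6, 41934934 to 42050357), the main D-type cyclin transcript in these libraries, was at 20.7 and 17.8 CPM in Spautin-1, against 22.2 and 24.8 CPM in vehicle. The groups did not overlap, but the log2 fold change of -0.29 ± 0.15 was not called (edgeR adjusted p = 0.19). CCND2 (chromosome 12, 4269771 to 4305353) rested on few reads, 92 and 88 in Spautin-1 against 42 and 50 in vehicle, which is 2.45 and 2.54 CPM against 1.21 and 1.29 CPM. It was called 1.99-fold higher, just inside the threshold (log2 fold change 0.99 ± 0.33, edgeR adjusted p = 0.0483), and missed it by DESeq2 (0.0814), limma-voom (0.055) and in each fit that left out 1 library (0.0612 to 0.206). A gene on the same strand, listed as ENSG00000285901, shares 999 of the 7988 exonic bases of CCND2 and 1711 of its own 3435 with the neighbouring TIGAR. That gene had 639 and 605 reads in Spautin-1, against 818 and 937 in vehicle, and was called lower (-0.47 ± 0.14, edgeR adjusted p = 0.0315). Added together, both genes gave 19.5 and 20.0 CPM in Spautin-1, against 24.8 and 25.5 CPM in vehicle. That sum can include reads from the bases shared with TIGAR and from 725 bases of ENSG00000285901 alone, so it is not a level of CCND2. The call of CCND2 as higher concerns the reads assigned to it, and the sources used here do not say how reads in shared exons were handled. CCND1, the D-type cyclin of mantle cell lymphoma, was at 2.13 and 3.64 CPM in Spautin-1, against 3.77 and 3.78 CPM in vehicle, and was not called (edgeR adjusted p = 0.378).

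Among the CIP/KIP inhibitors, CDKN1B (KIP1) rose and CDKN1A (CIP1), a well-known target of p53, was not called. CDKN1B (chromosome 12, 12685498 to 12722369) was at 77.3 and 72.8 CPM in Spautin-1, against 43.4 and 54.4 CPM in vehicle. The lower Spautin-1 library stood well above the higher vehicle library, and the log2 fold change was 0.62 ± 0.13, or 1.53-fold higher (edgeR adjusted p = 0.00621). CDKN1A (chromosome 6, 36676460 to 36687337) was at 8.21 and 7.62 CPM in Spautin-1, against 8.0 and 10.3 CPM in vehicle. The groups overlapped, and the log2 fold change of -0.21 ± 0.19 (edgeR adjusted p = 0.484) moved between -0.38 without vehicle replicate 1 and -0.02 without vehicle replicate 2.

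Neither INK4 inhibitor was called. CDKN2C (chromosome 1, 50960745 to 50974634), the INK4 member known to restrain plasma cell precursors in mice, was at 18.9 and 19.7 CPM in Spautin-1, against 23.6 and 28.2 CPM in vehicle. The groups did not overlap and the log2 fold change of -0.42 ± 0.15 lay just outside the threshold (edgeR adjusted p = 0.0565). It passed with several other settings, among them the edgeR exact test (0.0389) and library size scaling (0.0394), and without vehicle replicate 1 (-0.55, adjusted p = 0.000501), but not by DESeq2 (0.0548). CDKN2D (chromosome 19, 10566460 to 10569059) had 67 and 64 reads in Spautin-1, against 56 and 76 in vehicle, or 1.79 and 1.85 CPM against 1.61 and 1.97 CPM. Both Spautin-1 libraries lay between the vehicle libraries, and the log2 fold change was 0.02 ± 0.33 (edgeR adjusted p = 0.976).

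Levels of different genes were compared per length, as CPM divided by exonic kilobases (RPKM) with TMM scaling. CDK4 was highest, at 41.2 and 38.9 RPKM in Spautin-1 and 53.8 and 70.4 RPKM in vehicle, and stood above 93.9% and 95.8% of all genes tested in the 2 groups. In Spautin-1 the order by mean was CDK4, CDK6, CDKN1B, CDKN2C, CCNE1, CCND3, CDKN1A, CCNE2, CDKN2D and CCND2, and the library values of 0 neighbouring pairs overlapped. In vehicle the order was CDK4, CDKN2C, CCNE1, CDK6, CDKN1B, CCNE2, CCND3, CDKN1A, CDKN2D and CCND2, and the ranges of CDK6 and CDKN1B and of CCNE2 and CCND3 overlapped. CDKN1B stood above CCNE1 in Spautin-1, at 8.11 and 4.62 RPKM on average, and below it in vehicle, at 5.28 and 7.54 RPKM. This order depends on the tabulated exonic lengths, 9255 bases for CDKN1B and 2461 for CCNE1. In CPM, CDKN1B stood above CCNE1 in Spautin-1 (75.0 and 11.4) and in vehicle (48.9 and 18.6). CCND2 was lowest in both groups, at 0.312 RPKM in Spautin-1 and 0.157 RPKM in vehicle.

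The makeup of each pair of related genes differed between the groups. The D-type and INK4 shares rest on the few reads of CCND2 and CDKN2D. CCND2 made up 7.87% and 9.34% of the D-type sum in Spautin-1, against 3.78% and 3.62% in vehicle. CDKN2D made up 15.9% and 15.8% of the INK4 sum in Spautin-1, against 12.0% and 12.3% in vehicle, and neither INK4 gene was called. CDK6 made up 17.5% and 18.1% of the summed CDK4 and CDK6 level per length in Spautin-1, against 11.0% and 7.68% in vehicle. CDKN1B made up 75.3% and 75.6% of the CIP/KIP sum in Spautin-1, against 63.7% and 63.1% in vehicle. CCNE2 made up 28.6% and 28.1% of the E-type sum in Spautin-1, against 36.9% and 35.9% in vehicle. In each of these pairs the replicates lay closer to each other than the groups did. The E-type sum itself was 6.52 and 6.36 RPKM in Spautin-1, against 12 and 11.8 RPKM in vehicle, whereas the D-type sum was 3.90 and 3.40 RPKM against 4.01 and 4.47 RPKM. The sum of the kinases was 49.9 and 47.4 RPKM in Spautin-1 and 60.5 and 76.3 RPKM in vehicle, and that of the 4 inhibitors was 18.5 and 18.2 RPKM in Spautin-1 and 16.3 and 20.0 RPKM in vehicle. The ratio of the kinase sum to the inhibitor sum was 2.69 and 2.61 in Spautin-1, against 3.72 and 3.82 in vehicle. For CDK4 over CDKN1B alone, a ratio singled out after its values were seen, the values were 4.93 and 4.94 in Spautin-1, against 11.5 and 12 in vehicle. These shares and ratios are descriptions of transcript levels without a test, since 2 against 2 libraries cannot pass an exact one.

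**Figure D2:**
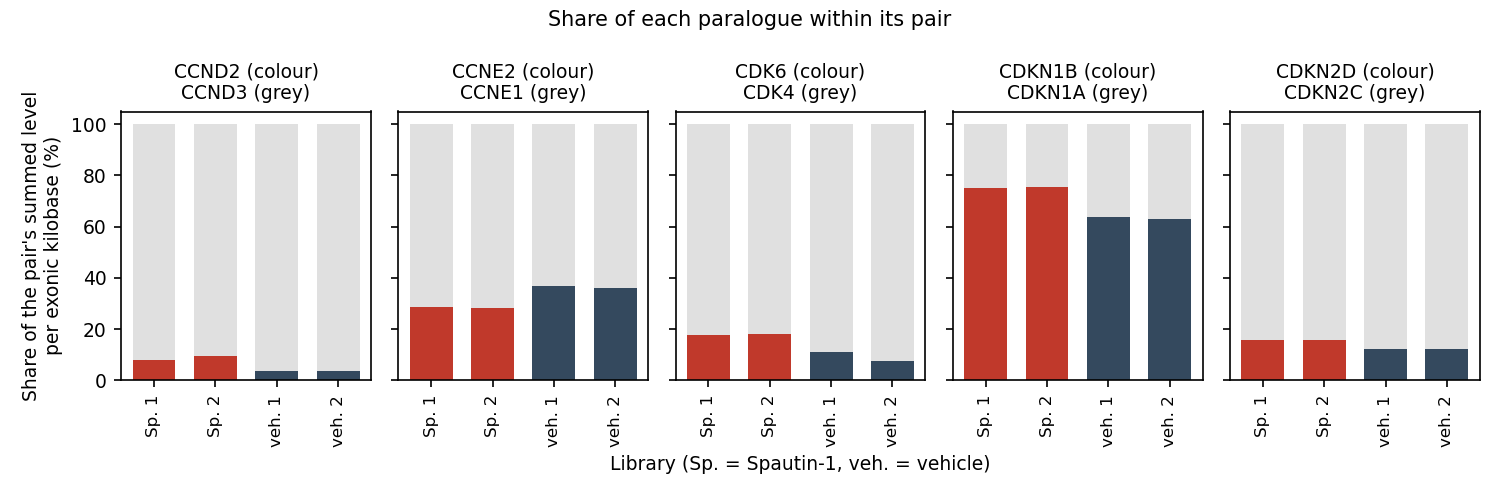
Share of each gene in its pair's summed level per exonic kilobase, in percent, for each library, with the Spautin-1 libraries (Sp., red) left of the vehicle libraries (veh., dark blue) and the partner in grey. The share of CDK6 is 17.5% and 18.1% in Spautin-1 and 11.0% and 7.68% in vehicle, and the share of CCNE2 is lower in both Spautin-1 libraries than in both vehicle libraries.

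Leaving out each library in turn changed several calls, and among the 10 genes it turned the direction of CDKN2D only (-0.11 without vehicle replicate 1). CCNE2 stayed below vehicle and called in all 4 fits, with log2 fold changes of -1.20 to -1.27. CCNE1 ran from -0.68 to -0.71, and was not called without Spautin-1 replicate 1 (edgeR adjusted p = 0.0781) or Spautin-1 replicate 2 (0.099). CDK4 ran from -0.43 without vehicle replicate 2 to -0.82 without vehicle replicate 1, and was not called without Spautin-1 replicate 2 (edgeR adjusted p = 0.0769). CDK6 was at 0.47 and 0.49 and not called without Spautin-1 replicate 1 (edgeR adjusted p = 0.13) or replicate 2 (0.12). CDKN1B ran from 0.46 without vehicle replicate 1 to 0.79 without vehicle replicate 2, and missed the threshold without Spautin-1 replicate 1 (0.0813) or replicate 2 (0.0524). Without vehicle replicate 1, 7 of the 10 were called, CCND3 and CDKN2C among the lower ones, beside 32.0% of all genes. Without vehicle replicate 2, 5 were called, beside 28.2%. Without Spautin-1 replicate 1, 2 were called, beside 9.47%, and without Spautin-1 replicate 2, 1, beside 7.55%. In the last 2 fits 0 of the 10 were called higher and 3 were higher at an unadjusted p under 0.05. With 1 library left in a group, that library is assumed to vary like the other group's.

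**Figure D3:**
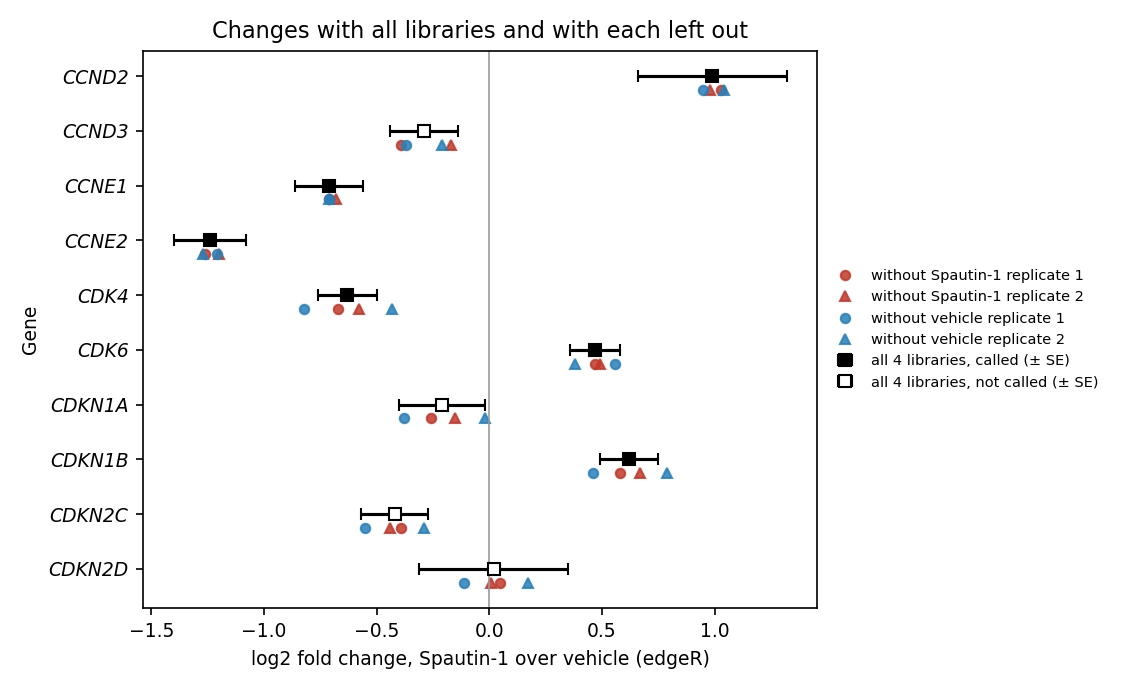
Log2 fold change of Spautin-1 over vehicle by the edgeR quasi-likelihood fit for each gene, with all 4 libraries (squares, filled if called, bars ± SE) and with each library left out in turn (smaller symbols). CCNE2 stays between -1.20 and -1.27, CDK4 spreads from -0.82 to -0.43, and CDKN2D lies on both sides of 0.

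The change in the 10 genes stood beside changes in the rest of the G1 pathway. Over all genes tested 22.0% were called, 11.5% as higher and 10.5% as lower, and fewer with 1 Spautin-1 library left out. Among the 12750 tested genes with a mean level of at least 1.80 CPM, 27.9% were called. These shares stand beside each list below. Of 11 other cell-cycle cyclins and CDKs tested, 4 fell and 0 rose (0 also at an unadjusted p under 0.05 and by DESeq2, limma-voom and the edgeR exact test). Their median log2 fold change was -0.29 and their called share 36.4%. Without vehicle replicate 1, 2 were called higher and 5 lower, without vehicle replicate 2, 0 and 6, and without either Spautin-1 library, 0 and 1. CDK2, the partner of the E-type cyclins, was at 87.1 and 84.0 CPM in Spautin-1, against 124 and 191 CPM in vehicle, or 1.84-fold lower (edgeR adjusted p = 0.00283). The mitotic cyclin CCNB1, the S-phase cyclin CCNA2 and CCNF, an F-box protein, fell 1.41-fold, 1.31-fold and 1.64-fold. Of the other CDK inhibitors, the INK4 gene CDKN2B rose at a low level, with 2.80 and 3.69 CPM in Spautin-1 against 1.27 and 1.86 CPM in vehicle (2.06-fold, edgeR adjusted p = 0.0367). It was the one higher call of its list, of which 0 were called higher without vehicle replicate 1, without either Spautin-1 library or at a threshold of 0.01, and 2 without vehicle replicate 2. CDKN2A was at 28.4 and 31.3 CPM in Spautin-1, against 19.8 and 32.0 CPM in vehicle, and was not called (0.502). CDKN3, a phosphatase of CDKs, was not called either (-0.36 ± 0.16, edgeR adjusted p = 0.132). CDKN1C had 0 and 2 reads in Spautin-1 and 0 in both vehicle libraries.

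Among 17 pocket proteins, E2F and DP factors and MuvB subunits, 5 fell and 2 rose, with a median of -0.30 and a called share of 41.2%. With Spautin-1 replicate 1 left out, 2 fell and 0 rose, and with replicate 2 left out, 0 fell and 0 rose. With the vehicle libraries left out in turn, 7 fell in both fits and 3 and 2 rose. The pocket protein RBL1 (p107) fell 1.74-fold (edgeR adjusted p = 0.00268), and its relative RBL2 (p130), which is known to accumulate in resting cells, rose 1.53-fold (0.0158). The E2F factors E2F4 and E2F8 fell 1.47-fold and 1.66-fold. The MuvB subunit LIN37 rose 2.68-fold on few reads, 101 and 78 in Spautin-1 against 26 and 42 in vehicle (edgeR adjusted p = 0.0163). LIN37 shares 26.7% of its exonic bases with a gene on the same strand and 41.8% with one on the opposite strand. Of the 5 kinases and phosphatases that act on CDKs, CDC25A, the phosphatase that activates CDK2, fell 1.62-fold (edgeR adjusted p = 0.00883) and PKMYT1, an inhibitory kinase of CDK1, 1.53-fold (0.00676). WEE1, also an inhibitory kinase, rose 1.35-fold (0.0454), and CDC25B and CDC25C were not called. WEE1 was the one higher call of this list, and 0 were called higher with upper quartile or library size scaling, with the length or GC offset, or without either Spautin-1 library, where the lower calls were 0 (without replicate 1) and 1 (without replicate 2).

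Of 19 genes for the turnover of G1 cyclins and CDK inhibitors, 4 were called, 21.1%, close to the share over all genes. The list holds ubiquitin ligase parts and adaptors, and also the deubiquitinases USP28 and USP37, which were not called. CUL3, a scaffold whose ligases include one for cyclin E, fell to 74.2 and 71.9 CPM in Spautin-1, against 157 and 149 CPM in vehicle (2.09-fold, edgeR adjusted p = 4.28e-05). SKP2, which targets the CDKN1B protein, and the scaffold CUL1 fell 1.37-fold and 1.33-fold, and FBXW7, which targets cyclin E, rose 1.38-fold (edgeR adjusted p = 0.0255). Without either Spautin-1 library 1 of the list fell and 0 rose, and without vehicle replicate 1 or 2, 5 and 7 fell and 3 and 1 rose.

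Many genes of the S phase and of mitosis fell, as the E-type cyclins did. Of 26 G1/S genes known to be induced by E2F, 17 fell and 0 rose (at an unadjusted p under 0.05, 18 and 0; 17 and 0 by DESeq2, limma-voom and the edgeR exact test). Their median log2 fold change was -0.45, 9 were not called, and the called share was 65.4%. UHRF1, which maintains DNA methylation, fell 2.58-fold (edgeR adjusted p = 5.8e-06), the flap endonuclease FEN1 1.75-fold and the helicase subunit MCM4 1.64-fold. Of 25 genes of G2 and mitosis, 11 fell and 0 rose (at an unadjusted p under 0.05, 14 and 1; 11 and 0 by DESeq2, limma-voom and the edgeR exact test). The median of the 25 was -0.32, 14 were not called, and the called share was 44.0%. CCNB1, CCNB2 and CDK1, from the list of other cyclins and CDKs, are counted again here. PLK1, a mitotic kinase, fell 2.16-fold, MYBL2 1.61-fold and the spindle motor KIF11 1.63-fold. Without Spautin-1 replicate 1 and without Spautin-1 replicate 2, 8 and 7 of the G1/S genes and 4 and 3 of the mitotic genes were lower, and the larger counts with vehicle replicate 1 or 2 left out were 20 and 17 for G1/S and 12 and 15 for mitosis. Without vehicle replicate 1, 1 mitotic gene was called higher. Their part in the change of CCNE1, CCNE2 and CDK4 was not tested.

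Of 27 tested transcription factors known to act on genes of G1 cyclins and CDK inhibitors, 12 rose and 2 fell, with a median of 0.37, and without Spautin-1 replicate 2, 9 rose and 1 fell. STAT5A, which acts on D-type cyclin genes downstream of cytokine receptors, rose 3.35-fold, to 207 and 225.5 CPM in Spautin-1 against 60.1 and 69.0 CPM in vehicle (edgeR adjusted p = 1.83e-06). ATF3 and KLF6 rose 3.5-fold and 2.79-fold. BCL6, the repressor that maintains the germinal-centre programme, fell 1.70-fold (edgeR adjusted p = 0.00116), and MAX 1.65-fold (0.00178). BCL6 was counted among the B-lineage markers too. The called share of this list was 51.9%. MYC, named after its values were seen because of the E-boxes in the CDK4 window, was at 125 and 129 CPM in Spautin-1, against 69.4 and 88.1 CPM in vehicle, or 1.61-fold higher (edgeR adjusted p = 0.00255). Of 34 named genes of the pathway outside the 10, 8 share at least 10% of their exonic bases with another tested gene, only on the opposite strand except for LIN37. They are CDK2, CDKN2A, CCND1, LIN37, PKMYT1, CUL1, PLK1 and MAX, whose reads could have been divided between such neighbours.

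**Figure D4:**
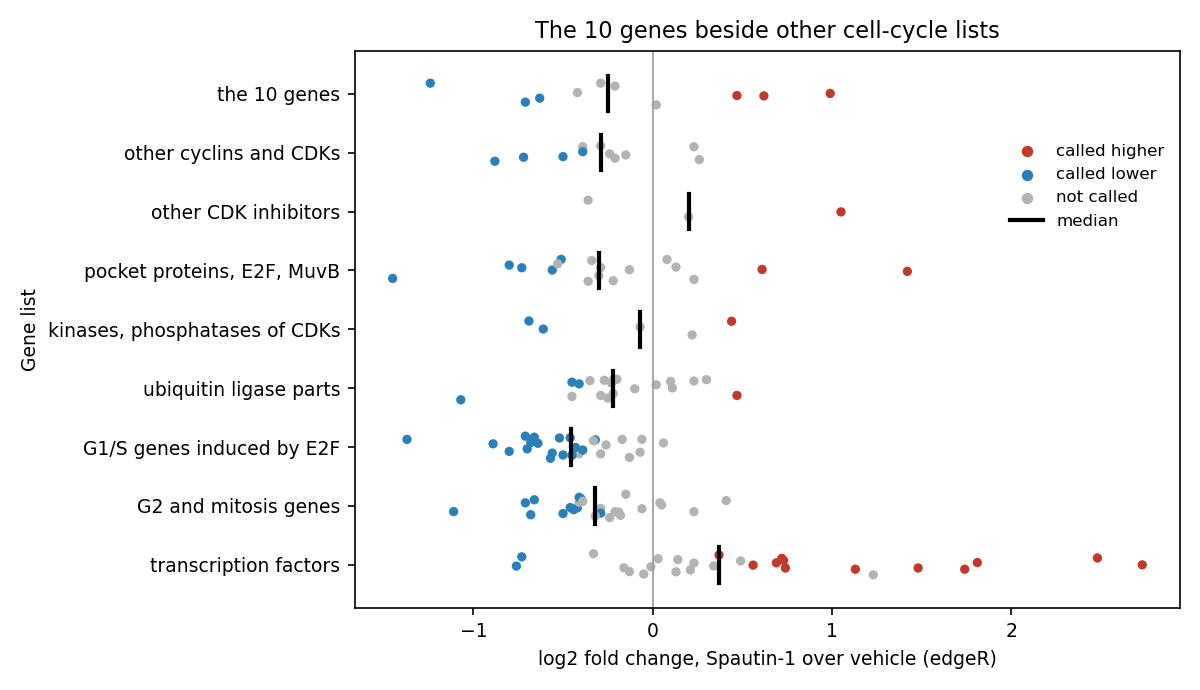
Log2 fold change of Spautin-1 over vehicle for every tested gene of the 10 and of 8 lists of the same pathway, each point a gene (red called higher, blue called lower, grey not called, by edgeR) and each black line a list's median. The medians are -0.25 for the 10 genes, -0.45 for the G1/S genes, -0.32 for the G2 and mitosis genes and 0.37 for the transcription factors. The row of ubiquitin ligase parts also holds the deubiquitinases USP28 and USP37.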

How the data were processed

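RNA sequencing of SU-DHL-2 cells gave 2 libraries for Spautin-1 and 2 for vehicle. The protocol was TRIzol extraction followed by a stranded mRNA kit, per the labels' protocols. Trimmomatic 0.36, featureCounts (Subread 1.5.1), edgeR 3.12.1 and the build GRCh38 are named, with no order, in the submitters' processing notes. Aligner, annotation, strand setting and handling of reads shared by genes were not given in the sources used. The authors deposited raw counts of reads per gene with each gene's exonic length.

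The tests used edgeR 4.0.16 under R 4.3.3: filterByExpr by group (minimum count 10, minimum total 15), TMM scaling, and the two-sided quasi-likelihood F test, p-values being adjusted by Benjamini-Hochberg over 18368 genes. The SE of a log2 fold change is its size divided by the square root of F. RPKM uses the deposited exonic length. At least 1 read was found for 31681 genes. TMM factors were 0.980 and 0.994 for Spautin-1 and 1.02 and 1.01 for vehicle. Replicate libraries differed by more than counting noise (chi-square per degree of freedom of 8.16 for Spautin-1 and 27.2 for vehicle). Each library was treated as 1 sample, and this spread does not show whether the libraries came from separate cultures.

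The 10 genes, the other gene lists and the motifs were chosen with earlier results of these data known. Of each list, up to 3 called genes in each direction with the smallest p are named, and any gene of the short lists may be. The procedure was tested on simulated data. Alternatives were RLE, upper quartile and library size scaling, no filter, 1 CPM in 2 libraries, DESeq2 1.42.0, limma-voom (limma 3.58.1), a replicate block, robust empirical Bayes, the edgeR exact test, a loess offset (span 0.3) on exonic length, a threshold of 0.01 and leaving out each library. A loess offset on GC content of the longest GENCODE transcript, known for 89.8% of genes tested, was chosen after seeing the data.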

Additional observations from a re-analysis of the deposited data

How the results depend on the processing

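The directions of 9 of the 10 genes held in all 17 alternatives. Of these, the threshold of 0.01 reused the main fit and could not change a direction. CDKN2D, near no change, turned to -0.02 with library size scaling and to -0.11 without vehicle replicate 1, and lay at 0.17 without vehicle replicate 2. CCNE2 was called in all 17. The call of CCND2 was lost in 11, that of CDK6 in 3, those of CCNE1 and CDKN1B in 2 each and that of CDK4 in 1, the ones beyond CCND2 without a Spautin-1 library or, for CDK6, at the threshold of 0.01. CDKN2C was called in 7 alternatives and CCND3 in 1. With each library left out, between 0 and 2 of the 10 were called higher and between 1 and 5 lower, and over all genes between 841 and 3062 were higher and between 545 and 2808 lower. At a threshold of 0.01, 1 of the 10 was higher, CDKN1B, and 3 were lower, CCNE1, CCNE2 and CDK4. Of all genes tested 1077 were higher and 861 lower, 10.6% in either direction. The other alternatives kept these 4 counts within 1.5 times. No label says that equal replicate numbers share a culture, and same-numbered libraries did not deviate together over genes (correlation -0.00151). With the replicate block 3 of the 10 were higher and 4 lower, and over all genes 2615 and 2485. The depth limits CCND2 and CDKN2D, which had under 100 reads in each library.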
